A study of Mus musculus with 6 samples.

Results

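The major urinary protein (Mup) genes of the mouse stand in a tandem array on chromosome 4, and the values below are those of the methylation array's probes across that array and its edges. The members were the probes other than array controls whose mm9 position lay in a 2.2 Mb window of chromosome 4, from which the outermost regions run from 59817500 to 61947766: 202 of the 174638 probes. Neighbouring probes were joined into a region where their start positions were within 500 bp of each other and at least 3 followed in a run, which gave 25 regions of 6 to 9 probes, of 22574 regions on the whole array. Every probe of the window fell in a region. The regions are numbered 1 to 25 in the order of their mm9 positions. The window had been chosen because, with each array centred on its median, many of its regions showed a higher methylation ratio for inulin than for obesity. That contrast is therefore described here and not tested.

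The study compared hypothalamic tissue, at the age of 16 weeks, of mouse offspring from dams treated with inulin and from obese dams, which the labels also give as a maternal high fat diet. Each group had 3 arrays, and the sex and strain of the animals and whether the inulin dams also received the high fat diet are not given in the labels. No group from lean dams is analysed here. The labels do not say whether the arrays came from separate animals or litters, so the spread between arrays may be in part technical. Inulin is a fermentable plant fibre. On each 2-colour Agilent array, DNA pulled down with an antibody against methylated cytosine (methylated DNA immunoprecipitation, MeDIP) was labelled red with Cy5 and the genomic DNA without pull-down (the input) green with Cy3. The ratio given throughout is the log2 of red over green, centred so that each array's median is 0. A positive ratio marks more MeDIP signal relative to input than the typical probe of that array. A region's value is the mean over its probes.

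Major urinary proteins are lipocalins, small barrel-shaped proteins that bind and release volatile pheromones. Most are made in the liver under the control of growth hormone and sex hormones and leave the body in urine, and circulating forms have been tied to glucose metabolism. Mup20 encodes darcin, a male pheromone in its own right, whereas Mup4 and Mup5 are better known from nasal and salivary tissue than from liver. The hypothalamus is not a main site of their expression. Because the central copies are near-identical, a probe in this array can bind DNA of several copies, so a signal cannot be assigned to 1 gene. The immunoprecipitation depends on methylated CG sites, so few such sites in a fragment also limit its MeDIP signal.

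The reference gene table lists 22 numbered Mup genes and 23 Mup pseudogenes in this array, which runs from Mup4 to Mup21 between the neighbouring genes Slc46a2 and Zfp37. Mup4 and Mup6 open the array. A block of 16 genes, with Mup7, Mup1, Mup10 and Mup19 among them, lies between Mup6 and Mup5, and Mup5, Mup20, Mup3 and Mup21 close it. That table is of build GRCm38.p6 and the array is of build mm9. No region is therefore tied to a named gene here. RefSeq promoter sequences were at hand for 14 of the 22 genes and for 4 of the 6 member genes: Mup4, Mup6, Mup3 and Mup21. Mup5 and Mup20 are named only. The 250 bases before the transcription start are shown 5' to 3' on the gene's strand (plus for Mup6, minus for the others, GRCm38.p6), because they let the outer genes be set beside a pair of the central block, Mup15 and Mup19. Capitals mark CG sites, the sites at which mouse DNA is mostly methylated.
Mup4: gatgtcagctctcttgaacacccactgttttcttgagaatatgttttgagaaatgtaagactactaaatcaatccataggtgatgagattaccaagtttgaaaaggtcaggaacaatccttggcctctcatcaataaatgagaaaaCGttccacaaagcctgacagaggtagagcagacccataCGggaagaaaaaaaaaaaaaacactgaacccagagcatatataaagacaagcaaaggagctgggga
Mup6: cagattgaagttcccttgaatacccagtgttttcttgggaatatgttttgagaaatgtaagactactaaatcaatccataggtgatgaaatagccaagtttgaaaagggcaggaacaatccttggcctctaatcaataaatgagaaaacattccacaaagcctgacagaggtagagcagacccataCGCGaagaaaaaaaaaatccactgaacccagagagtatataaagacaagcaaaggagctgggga
Mup15: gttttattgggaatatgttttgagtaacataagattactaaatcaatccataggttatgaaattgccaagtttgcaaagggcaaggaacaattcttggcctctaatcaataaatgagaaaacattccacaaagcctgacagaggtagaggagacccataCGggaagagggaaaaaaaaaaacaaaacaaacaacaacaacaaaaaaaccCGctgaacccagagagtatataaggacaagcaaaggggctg
Mup19: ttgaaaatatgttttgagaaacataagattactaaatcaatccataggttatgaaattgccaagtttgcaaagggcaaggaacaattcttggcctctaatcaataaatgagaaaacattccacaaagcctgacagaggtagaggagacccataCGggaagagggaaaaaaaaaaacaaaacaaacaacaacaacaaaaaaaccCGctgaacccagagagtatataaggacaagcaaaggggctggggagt
Mup3: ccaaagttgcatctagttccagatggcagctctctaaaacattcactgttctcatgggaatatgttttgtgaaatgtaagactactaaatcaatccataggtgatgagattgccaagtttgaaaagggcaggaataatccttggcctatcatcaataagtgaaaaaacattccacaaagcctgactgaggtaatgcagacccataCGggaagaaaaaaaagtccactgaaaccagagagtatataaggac
Mup21: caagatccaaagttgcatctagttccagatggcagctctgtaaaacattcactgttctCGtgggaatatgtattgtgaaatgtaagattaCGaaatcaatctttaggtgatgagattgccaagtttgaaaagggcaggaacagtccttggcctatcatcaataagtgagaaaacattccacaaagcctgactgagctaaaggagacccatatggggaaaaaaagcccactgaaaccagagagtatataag

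The 14 Mup promoters held 0 to 2 CG sites in these 250 bases (median 2), against a median of 6 over all 32851 promoters in the table, of which 29% held at most 2. Their GC content was 34.8% to 40.4%, and the median of all promoters was 52.4%. Mup7 and Mup18 had no CG site. The Mup7 sequence ends, at its annotated start, before the stretch that holds the CG sites of most of the others. The letters TATATAA, searched on both strands, occurred in 11 of the 14 promoters and in 3.04% of all promoters of that length. In Mup7, Mup11 and Mup14, which lack these letters, the sequence ends before or inside the matching stretch of the others. Among the 10 promoters of the other Mup genes, local alignments gave 91.9% to 99.6% identity (median 96.8% over 45 pairs, aligned over 112 to 251 columns). Mup15 and Mup19 were the most alike, with 99.6% identity over 239 columns. The 4 member promoters were 83.3% to 92.7% identical to each other over 6 pairs, and 78.5% to 91.5% identical to the 10 others. The 4 promoters from the ends of the array were thus less alike than those of its centre. These promoters are a description of the reference, and whether the array's regions overlap them was not determined.

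The input signal of the window stood far above its surroundings on every array. Over the 48 regions within 2 Mb on either side, the median input was taken per array and subtracted from the median of the window's 25 regions. The difference was 2.82, 2.81 and 2.43 on the log2 scale in the inulin arrays 1 to 3 and 2.62, 2.06 and 2.71 in the obesity arrays 1 to 3. The lowest value was that of obesity array 2, on which many spots of the brightest probes had been left out as outliers, and the groups overlapped. The mean was 2.58 ± 0.29 (SD, n = 6), higher in 6 of 6 arrays. The two-sided exact sign-flip permutation test over the 6 arrays gave p = 0.0312 (adjusted over the 3 measures, 0.0312), the smallest p that 6 arrays allow. With only the 156 of 202 probes that the scanner software had marked as outliers on no array, a choice made after seeing the data, the values were 1.94, 1.88 and 1.60 in the inulin arrays and 1.95, 2.05 and 2.11 in the obesity arrays, and obesity array 2 was no longer the lowest. A probe's signal also depends on its own sequence, and the same probes are on all 6 arrays. The test therefore says that the sign recurs from array to array for these probes, and it does not compare amounts of DNA.

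The MeDIP signal stood less far above the flanks, and less far still without the probes that held marked spots. Its difference was 1.09, 1.18 and 0.80 in the inulin arrays and 0.67, 0.15 and 0.54 in the obesity arrays. All 3 inulin values lay above all 3 obesity values. The mean over the 6 arrays was 0.74 ± 0.38 (SD, n = 6), with the same exact permutation p of 0.0312. With only the unmarked probes it was 0.12 ± 0.13 (SD, n = 6; exact permutation p = 0.0938), with values of 0.29, 0.25 and -0.03 in the inulin arrays and 0.08, 0.15 and 0.00 in the obesity arrays, and the groups overlapped. The ratio was low. Relative to the flanks it was -1.65, -1.52 and -1.59 in the inulin arrays and -1.86, -1.99 and -2.14 in the obesity arrays, a mean of -1.79 ± 0.25 (SD, n = 6), given as a description because the window was chosen on a contrast of the ratio. Over the 25 regions the median of the mean ratio was -1.95, with a range of -2.38 to 0.40, and the median over all 22574 regions of the array was -0.06.

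**Figure D1:**
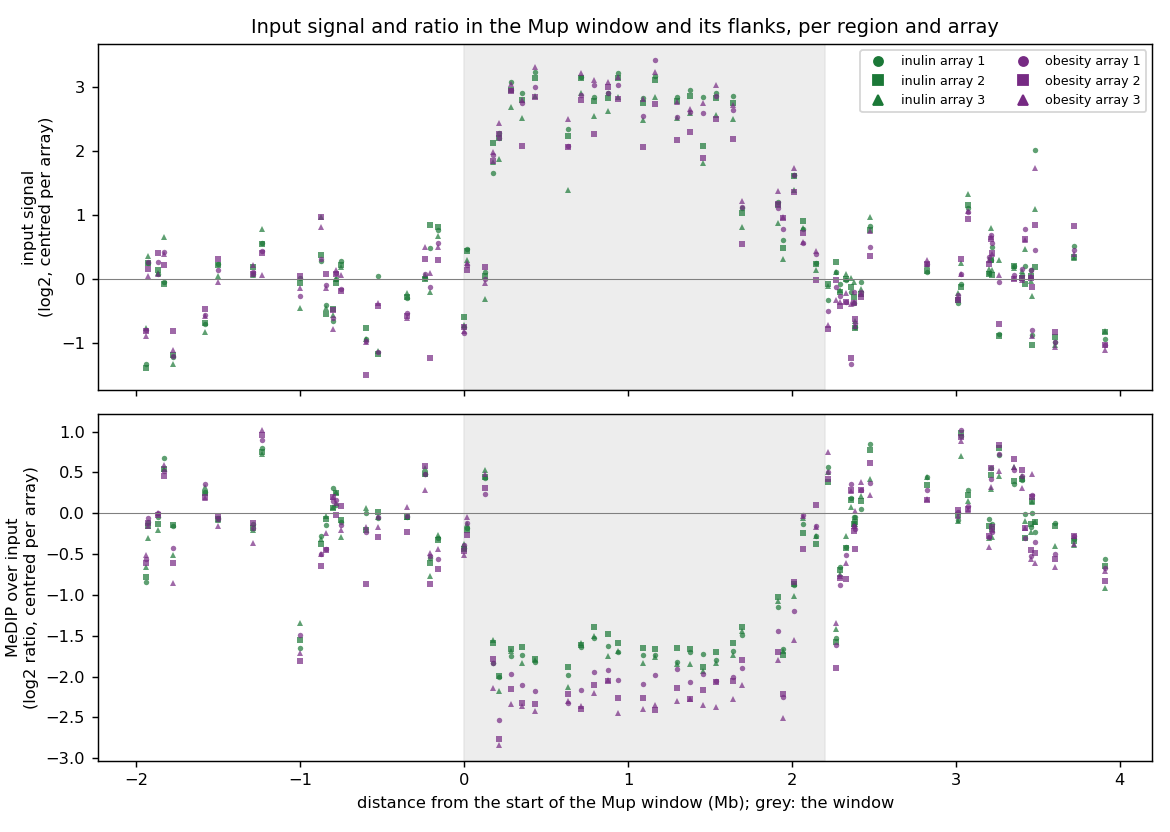
Input signal (upper plot) and ratio of MeDIP over input (lower plot), both log2 and centred per array, of each region of the window and its flanks against the distance in Mb from the window's start; each point is 1 region on 1 array, with the inulin arrays in green and the obesity arrays in purple. The highest inputs lie in the middle of the window. The lowest mean ratio is that of region 4, nearer the window's start, and the outermost regions lie at the level of the flanks.

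The low ratio began abruptly at the low end of the window. Region 1 (chr4:59817500-59818999, mm9) had ratios of -0.18, -0.20 and -0.13 in the inulin arrays and -0.12, -0.27 and -0.04 in the obesity arrays, near the median of the array. Region 2 (chr4:59927438-59929067) had 0.43, 0.44 and 0.52 in the inulin arrays and 0.24, 0.31 and 0.48 in the obesity arrays, the highest values of the window. The groups overlapped in both regions. From region 3, which starts at 59973038, to region 20, which starts at 61495716, the mean ratio of a region lay between -2.38 and -1.69.

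At the other end the ratio returned to the level of the flanks over several regions and unevenly. Region 20 had a mean ratio of -1.69, region 22 had -2.01, and region 23 (chr4:61811377-61812750) had -1.06. Region 24 (chr4:61868749-61870480) had -0.13, -0.25 and -0.06 in the inulin arrays and -0.02, -0.44 and -0.03 in the obesity arrays, with the groups overlapping. Region 25 (chr4:61946179-61947766) had -0.27, -0.38 and -0.28 in the inulin arrays and -0.16, 0.10 and -0.16 in the obesity arrays. It was the only region of the window in which every inulin array lay below every obesity array. The regions just inside and just outside the window's limits were alike in having ratios far from those of its centre. The nearest region outside at the low end (chr4:59796291-59797911, 7 probes) had mean ratios of -0.41 in the inulin and -0.46 in the obesity group, and the nearest outside at the high end (chr4:62020437-62022684, 11 probes) had 0.49 and 0.56.

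The 4 regions with the brightest input started between 0.435 and 1.165 Mb from the start of the 2.2 Mb window. Region 14 (chr4:60964560-60966231) had a mean input of 3.09, region 7 (chr4:60234980-60236652) 3.06, region 12 (chr4:60735726-60737427) 3.04 and region 9 (chr4:60514360-60516064) 3.02. In region 14 the input was 3.18, 3.11 and 2.84 in the inulin arrays and 3.43, 2.73 and 3.23 in the obesity arrays. The groups overlapped in the input of each of these 4 regions. The brightest regions were thus bright in both groups.

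A set of regions in the middle shared the positions of the probes nearest their start, which began up to 422 bp from it. Further along the positions differed: the next probe started 605 to 691 bp from the region's start and was 45 to 60 bases long. The shared layout named below means the shared positions only. In 14 of the 25 regions, numbers 6 to 19, a probe of 46 bases started 200 to 207 bp after the first probe, and these regions hold 113 of the 202 probes. Their starts followed each other at a median distance of 80209 bp. Their mean ratios lay between -2.14 and -1.78 (median -1.97) and their inputs between 2.10 and 3.09. The other 11 regions ranged from -2.38 to 0.40 in ratio. The probe sequences are not used here, so how alike the probes of different copies are was not measured.

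Within the shared layout the profile of the probes nearest the region's start was repeated from region to region. The first probe had mean ratios of -1.67 to -1.10 over the 14 regions. The second, 200 to 207 bp further on, had -2.52 to -2.30, with a median of -2.43 and an SD over the 14 regions of only 0.06. The third probe, 415 to 422 bp from the first and 45 or 46 bases long, had ratios between -0.77 and -0.32. It had a median input of 7.03 (range 4.27 to 7.20), which placed the median copy in the 99.65th percentile of input over all probes of the array. None of its 84 spots was saturated. Each region also had a probe of 60 bases near the far end, 1359 to 1440 bp from the first. These had the lowest median ratio of these classes, at -2.70, with a range of -3.15 to -2.47. Their positions and inputs differed between regions (input -0.74 to 1.55, median 0.63). They are described as a group and not as 1 repeated probe. In each of the 14 regions the third probe thus had a higher ratio than the first, and the first a higher ratio than the second. These means are over unmarked spots and so not always over the same arrays. In 12 regions the third probe lacked obesity array 2, and in region 8 it had a value on obesity array 3 only.

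**Figure D2:**
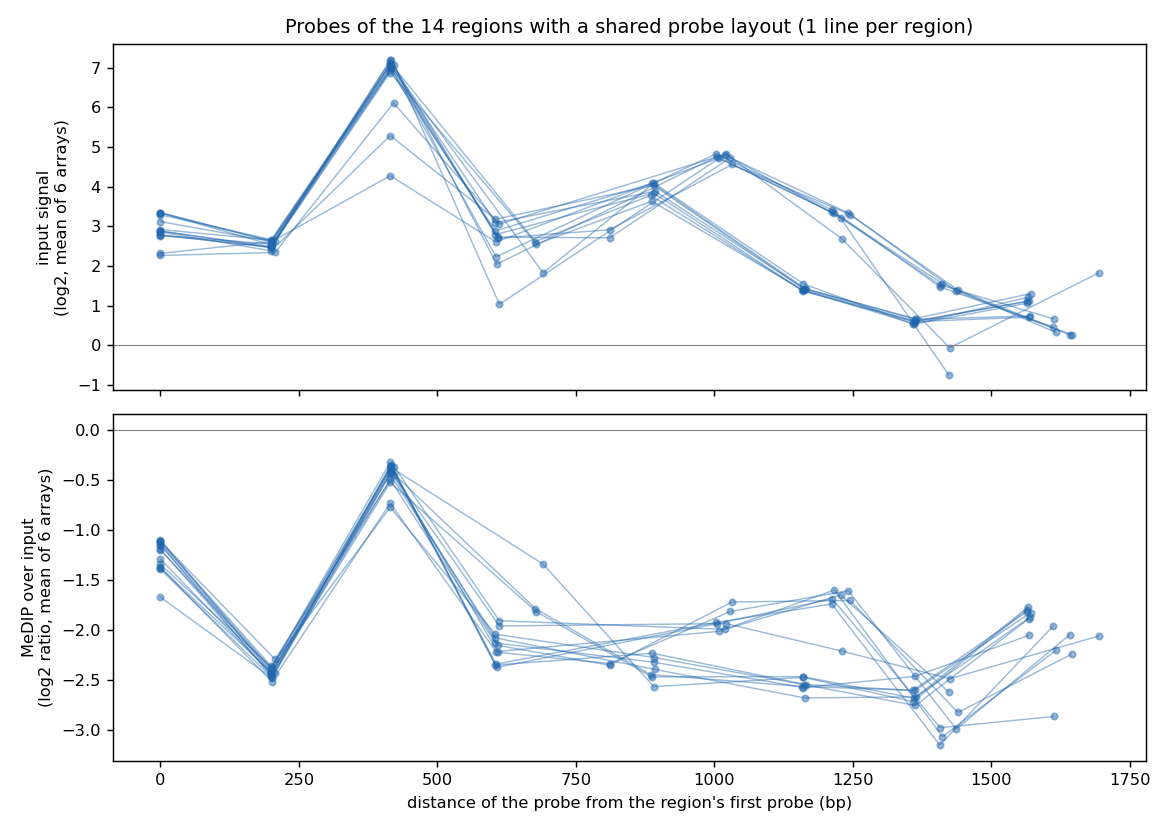
Mean input (upper plot) and mean ratio (lower plot) of each probe in the 14 regions with the shared layout, against its distance in bp from the region's first probe. Both are log2, centred per array and averaged over the probe's unmarked spots on the 6 arrays. Each line is 1 region. The third probe stands out with a median input of 7.03 and a median ratio of -0.41, and in ratio the lines of the 14 regions run close together over the first 3 probes.

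With arrays centred on their medians, the ratio was less negative in the inulin group over most of the window. The median ratio of the 25 regions was -1.70, -1.61 and -1.69 in the inulin arrays (mean -1.67 ± 0.05, SD, n = 3) and -1.97, -2.14 and -2.30 in the obesity arrays (-2.14 ± 0.16, SD, n = 3). Every inulin array lay above every obesity array. The difference, inulin minus obesity, had a median of 0.45 over the regions (range -0.23 to 0.70) and was above 0 in 23 of 25, while its median over all regions of the array was 0.03 and over the flanks 0.05. In the limma fit over all regions, 16 of the 25 were higher in the inulin group at a Benjamini-Hochberg adjusted p under 0.05, against 5.61% of all regions. None was lower, against 1.81% of all regions. At an unadjusted p under 0.05 the counts were 20 higher, against 19% of all regions, and 1 lower, against 9.6%. In 19 regions all inulin arrays lay above all obesity arrays, as they did in 20.8% of all regions, and in 1 region below, as in 14.2%. These counts come from the contrast that chose the window and are not evidence for it. Near the threshold, region 18 was among the 16 with a difference of 0.39 ± 0.10 (SE) and region 8 was not, with 0.28 ± 0.08 (SE).

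The 4 regions with the largest differences lay at both sides of the array and in its middle. Region 9 had ratios of -1.63, -1.61 and -1.59 in the inulin arrays and -2.16, -2.40 and -2.36 in the obesity arrays, a difference of 0.70 ± 0.08 (SE). Region 4 (chr4:60015121-60016916), which had the lowest mean ratio of the window, had -2.0, -1.99 and -2.17 against -2.54, -2.76 and -2.84, a difference of 0.66 ± 0.10. The inulin arrays lay above the obesity arrays in both, and the obesity arrays were spread more widely. Region 22 (chr4:61747932-61749551) had -1.67, -1.73 and -1.68 against -2.25, -2.21 and -2.50, a difference of 0.63 ± 0.09. Region 10 (chr4:60594593-60596075) had -1.53, -1.40 and -1.51 against -1.94, -2.10 and -2.21, a difference of 0.60 ± 0.09. In region 22 only 4 of the 8 probes had a MeDIP signal well above background on all 6 arrays, 2 were dim on all 3 inulin arrays and 2 on all 3 obesity arrays, so its mean rests in part on signals that are only bounds.

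The brightest regions had differences of similar size. Region 14 had ratios of -1.73, -1.67 and -1.76 in the inulin arrays and -1.98, -2.41 and -2.35 in the obesity arrays, a difference of 0.53 ± 0.11 (SE). Region 7 had -1.82, -1.78 and -1.79 against -2.18, -2.33 and -2.43, a difference of 0.51 ± 0.08. Region 12 had -1.70, -1.59 and -1.69 against -2.05, -2.26 and -2.45, a difference of 0.59 ± 0.10. The groups did not overlap in any of these 3. Only 2 regions had a negative difference. Region 25 had -0.23 ± 0.09 (SE) and region 1 had -0.03 ± 0.08, and neither passed the threshold in the limma fit. The differences of regions 2 and 24 at the edges were 0.13 ± 0.08 and 0.02 ± 0.12.

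In all 14 regions with the shared layout the inulin mean was the higher, by 0.28 to 0.70 (median 0.49), and 11 of them were among the 16 that passed. Of the other 11 regions 5 passed, and their median difference was 0.28. The second probe of the layout had median ratios over the 14 copies of -2.05, -1.94 and -2.29 in the inulin arrays and -2.67, -2.61 and -3.01 in the obesity arrays. Its difference was above 0 in 14 of 14 copies (median 0.68, range 0.42 to 0.96). The third probe, the bright one, had medians of -0.17, -0.28 and -0.19 against -0.59, -0.69 and -0.80. On obesity array 2, 12 of the 14 copies were marked as outliers, so its value rests on those of regions 11 and 18. Those copies are 46 bases long and had mean inputs of 6.11 and 4.27, against a median of 7.03 over the 14. The value of obesity array 2 is therefore not from the same copies as the other medians. The third probe's median difference was 0.48 over the 12 copies with at least 2 unmarked spots in each group. In most of these the obesity mean came from arrays 1 and 3 alone. The copies may bind the same DNA, so these 14 values are not replicates of the condition.

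The arrays differed in the spread of all their ratios. It was wider in the obesity arrays, which also had the lower ratios in the window. Within that group the order differed: array 2 had the widest spread and array 3 the lowest median ratio of the window (-2.30). The median absolute deviation over all probes was 0.995, 1.005 and 1.005 in the inulin arrays and 1.18, 1.35 and 1.23 in the obesity arrays. After each array was also divided by its own deviation and multiplied by the mean one (equal scale), the window's median ratio was -1.93, -1.80 and -1.89 in the inulin arrays (mean -1.88 ± 0.06, SD, n = 3) and -1.89, -1.79 and -2.11 in the obesity arrays (-1.93 ± 0.16, SD, n = 3). The groups now overlapped. The median difference was 0.06 (range -0.27 to 0.27), with 16 regions above 0 and 9 below, and the median over all regions was 0.02. In the limma fit no region of the window passed in either direction, against 2.15% of all regions higher and 1.89% lower, and at an unadjusted p under 0.05 there were 4 higher (14.1% of all regions) and 1 lower (10.5%). Slides were inferred from the scan identifier in the file headers, with arrays of the same identifier taken as 1 slide. On that reading the 3 inulin arrays shared 1 slide and the obesity arrays lay on the other 2. Whether the wider spread of the obesity arrays comes from the animals or from the hybridisation can therefore not be told apart.

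**Figure D3:**
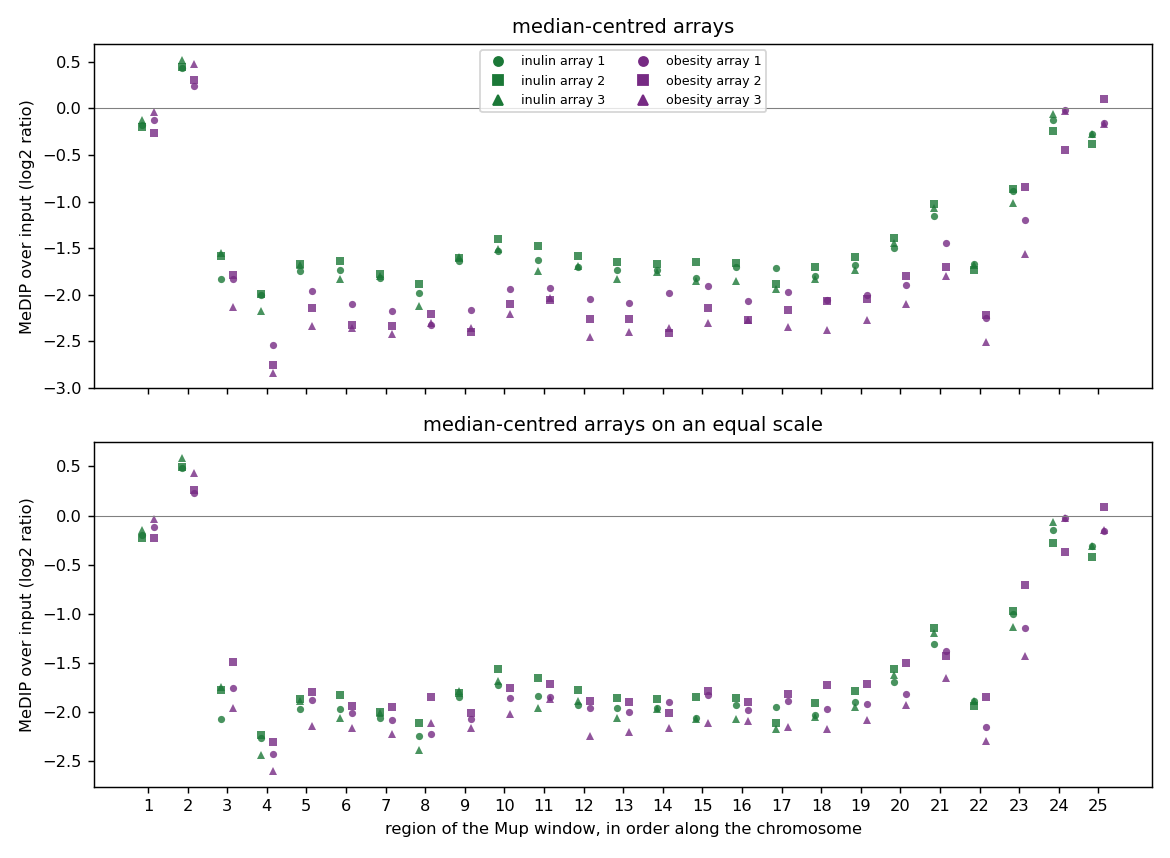
Ratio of MeDIP over input (log2) of the 25 regions in order along the chromosome, with arrays centred on their medians (upper plot) and also put on an equal scale (lower plot); each point is 1 array, inulin in green and obesity in purple. In the upper plot the inulin arrays lie above the obesity arrays without overlap in 19 regions, and in the lower plot in 4.

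On the equal scale 4 of the 25 regions had all inulin arrays above all obesity arrays, a share near the 16.3% of all regions of the array. Regions 9, 10 and 21 were also separated with median centring alone, and their differences were now 0.27 ± 0.07, 0.22 ± 0.09 and 0.27 ± 0.09 (SE). Region 2, which overlapped with median centring alone, had 0.22 ± 0.08. Region 25 again had all inulin arrays below all obesity arrays, with -0.27 ± 0.09, against 13.3% of all regions. Region 4 fell from 0.66 to 0.14 and overlapped. The third probe of the shared layout, with a ratio near 0, had a median difference of 0.41 on the equal scale against 0.48 before. In most of its copies the obesity mean came from arrays 1 and 3 alone. The second probe, with a ratio near -2.4, had 0.12 against 0.68. The 60-base probes near the far end, which differed in position, had -0.14 against 0.47.

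Region by region, the median difference was larger in the MeDIP channel than in the input channel. The window's median MeDIP signal was 1.15, 1.16 and 0.73 in the inulin arrays and 0.61, 0.16 and 0.51 in the obesity arrays, and obesity array 2 was the lowest. These groups did not overlap, but with only the 156 unmarked probes they did: the values were 0.29, 0.22 and -0.15 against -0.08, -0.05 and -0.22. The median input was 2.84, 2.75 and 2.48 against 2.56, 2.07 and 2.71, and the groups overlapped. The MeDIP difference had a median of 0.41 over the regions (range -0.31 to 0.78) and was above 0 in 24 of 25, against 14088 of all 22574 regions. With the normexp background correction its median was 0.25. The input difference had a median of -0.03 (range -0.43 to 0.29) and was above 0 in 11, against 13081 of all 22574 regions. Its median turned to 0.06 on the equal scale and 0.03 with normexp. The MeDIP difference exceeded the input difference in absolute size in 19 of 25 regions, against 11486 of all 22574. With only the 156 unmarked probes the median differences lay closer in size, at 0.23 for MeDIP and -0.14 for input. No region passed the limma fit in either channel, against 0.253% of all regions for MeDIP and 2.14% for input, and an unadjusted p under 0.05 was reached by 13 regions for MeDIP (21% of all regions) and 3 for input (24.4%). All inulin arrays lay above all obesity arrays in the MeDIP signal of 13 regions (22.4% of all regions) and in the input of 2 (22% of all regions), and below them in the input of 2 (12.2%).

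The named regions did not all follow that order of the channels. In region 9 the MeDIP signal was 1.58, 1.59 and 1.37 in the inulin arrays and 0.78, 0.48 and 0.94 in the obesity arrays, a difference of 0.78 ± 0.13 (SE), and the input differed by 0.10 ± 0.13. In region 22 the input was 0.61, 0.49 and 0.31 in the inulin arrays and 0.78, 0.95 and 0.97 in the obesity arrays. Its input differed by -0.43 ± 0.10 and its MeDIP signal by 0.18 ± 0.12, so the higher ratio of the inulin arrays there came with a lower input. In region 25 the MeDIP signal was 0.04, -0.08 and -0.08 against 0.29, 0.16 and 0.35, a difference of -0.31 ± 0.08, with an input difference of -0.06 ± 0.13. There too only 4 of the 8 probes had a MeDIP signal well above background on all 6 arrays, with 2 dim on all inulin arrays and 1 on all obesity arrays.

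**Figure D4:**
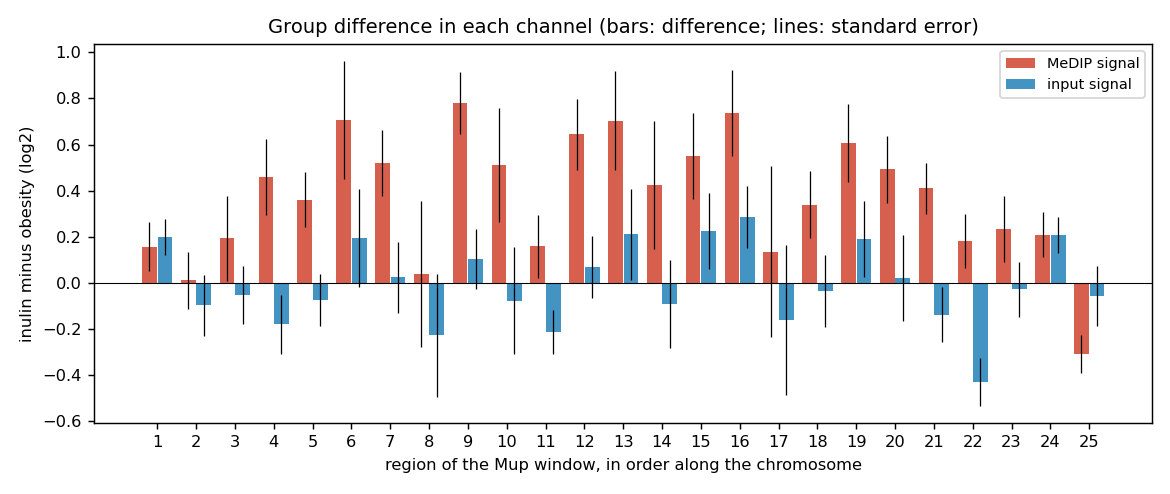
Difference between the groups, inulin minus obesity, in the MeDIP signal (red) and the input signal (blue) of each of the 25 regions in order along the chromosome, in log2 units; bars give the difference of the means of 3 arrays per group and lines its standard error from the limma fit. The MeDIP difference is above 0 in 24 regions, and region 25 is the exception; the input differences lie between -0.43 and 0.29.

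The scanner software had marked more spots as outliers in the window on 2 of the obesity arrays. The marked spots, which were left out, numbered 3, 3 and 6 of 202 in the inulin arrays and 17, 26 and 5 in the obesity arrays, or 1.49% to 12.9%, against 1.09% to 2.78% of all probes of an array. Of the 14 copies of the third probe, 12 were marked on obesity array 2, and 0 to 2 on each of the other arrays. That probe class had the highest median input and ratio of those described above, and 12 region means on obesity array 2 lack it. With only the 156 probes that had no mark on any array the window's median ratio was -1.82, -1.73 and -1.82 in the inulin arrays and -2.14, -2.11 and -2.44 in the obesity arrays, and the median difference was 0.42. On the equal scale it was -0.02, with 12 of 25 regions above 0. The median MeDIP difference was then 0.23, above 0 in 22 regions and without overlap in 6, against 25.9% of all regions, and the median input difference was -0.14, above 0 in 3.

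Single probes showed the same dependence on scale. Of the 202 probes 194 had at least 2 unmarked spots in each group, and their median difference was 0.45, with 169 above 0, against a median of 0.00 over all probes. In the limma fit over all probes, 43 were higher in the inulin group, against 5.12% of all probes, and 1 was lower, against 3.08%. That probe lies in region 2 at chr4:59928747-59928791 and was named after its values were seen. Its ratios were 0.64, 0.62 and 0.53 in the inulin arrays and 0.99, 1.05 and 1.09 in the obesity arrays. On the equal scale the counts were 2 higher, against 1.72% of all probes, and 1 lower, against 1.79%, and the median difference was 0.06. The window's probes were longer than most, with a median of 49 bases against 46 and with 28.7% at 60 bases against 13.2% of all probes. The share at 45 bases was 33.2% against 49.9%.

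Other bright places of the array give a yardstick for the window. Outside it, 559 regions had a mean input of at least 2, with a median ratio of -1.33. Their median difference was 0.15 with median centring. There 65 passed as higher and 3 as lower in the limma fit, against 5.61% and 1.81% of all regions. On the equal scale their median difference was -0.11. There 11 passed as higher and 102 as lower, against 2.15% and 1.89% of all regions. The flanks, with a median ratio of -0.13, had a median difference of 0.05 under both. The window's medians were 0.45 and 0.06. Both medians of bright regions, in the window and outside it, were lower on the equal scale. No test of the window against these regions was made, since its members were chosen on the contrast.

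The median-centred calls depended on the fit. With the slide as a random block, 0 of the 25 regions and 0 of the 194 probes passed in the limma fit, and leaving out any of the 3 inulin arrays also left 0 regions. The median region difference was 0.45 with the slide block, and 0.45, 0.43 and 0.47 without inulin arrays 1, 2 and 3. The share of all regions that passed in these fits is not given here, so the counts are not a result about the window alone.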

How the data were processed

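Hypothalamic DNA was measured on 6 two-colour arrays, 3 per group, grouped by the labels. Per the file headers, the scanner intensity values were deposited as extracted with Feature Extraction 11.0.1.1, protocol ChIP_1100_Jul11, with the background subtracted and a linear dye factor applied to each channel, and with positions in mm9. Dyes are per the labels. The authors' deposited table holds a signed score per probe. How it was made is stated in none of the labels or headers. Its column medians were 0.06, 0.06 and 0.04 for the inulin and 0.06, 0.05 and 0.05 for the obesity arrays. It correlated with the scanner log2 ratio at 0.866 to 0.912 over probes, which sets its direction. Its log base and scale remain unknown, and its spread was nearly equal on all arrays (0.811 to 0.833).

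Here the log2 of processed red over green was centred on each array's median, with no loess. Control probes and spots marked as outliers were left out. Probes were averaged over regions and fitted with limma 3.58.1 (R 4.3.3) over all regions or all probes, with at least 2 values a group. A result passed at a Benjamini-Hochberg adjusted p under 0.05. Levels against flanks were tested with exact sign flips. Promoters were aligned locally with Biopython 1.88. The region fit was tested on simulated data with independent noise on each array and no slide effect. That test therefore does not bear on the confounding of slide and group. In the window 98% to 98.5% of input spots and 81.2% to 93.1% of MeDIP spots were well above background, and none was saturated. The number of arrays limits the precision.

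The window, its members and all lists were chosen with earlier results of these data known. Regions with values in every array were, by rule, the 4 with the largest difference in each direction (2 existed below 0), the 4 with the brightest input and the 2 nearest each end. Alternatives were array scale, loess, quantile normalization, normexp with offset 50, the deposited table, filters on dim spots, a replicate block, a slide block, gaps of 300 and 1000 bp, the median of probes, flanks of 5 Mb, and leaving out each array. The treatment of outlier marks was added later. No paired design was used: deviations of same-numbered arrays correlated at -0.14, 0.28 and 0.33. Protein sequences were not used here.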

Additional observations from a re-analysis of the deposited data

How the results depend on the processing

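The number of window regions with a higher ratio in the inulin group (16) was 0 in the authors' deposited table, on the equal scale, with a random block for slide and after quantile normalization, and 10 with the median of probes. It ranged from 0 to 17 when 1 array was left out: 0 without any of the inulin arrays, and 15, 17 and 10 without obesity arrays 1 to 3. The median region difference (0.45) was 0.0582 on the equal scale, 0.0801 with quantile normalization, 0.273 with normexp and, in its own unit, 0.0798 in the authors' deposited table, and 0.37 to 0.50 without 1 array. The number of probes (43) was 2 on the equal scale, 65 with loess, 1 with quantile normalization, 75 with normexp, 2 in the authors' deposited table, 0 with the slide block and 0 to 48 without 1 array. The median probe difference (0.45) was 0.0607, 0.104, 0.282 and 0.0755 on the equal scale, with quantile normalization, with normexp and in the authors' deposited table, and 0.32 to 0.47 without 1 array. The cause was not tested. Shares of all regions or probes that passed are given above for the main fit and the equal scale only. The other counts can therefore not be set against the whole array. Without 1 array, the window minus its flanks was 2.53 to 2.68 in input, 0.65 to 0.85 in MeDIP and -1.85 to -1.72 in ratio; 5 arrays allow no exact permutation p below 0.0625. With only unmarked probes, an alternative chosen after seeing the data, the MeDIP level was 0.124. The levels otherwise kept their direction and p with flanks of 5 Mb, normexp, equal scale and marked spots kept. The median MeDIP difference (0.41) was 0.247 with normexp, 0.429 on the equal scale, 0.227 with unmarked probes and 0.31 to 0.51 without 1 array; the median input difference (-0.03) was 0.0328, 0.0606, -0.138 and -0.09 to 0.08. With the replicate number as a block, 18 regions (median 0.45) and 41 probes (median 0.44) passed as higher. Region counts of 13 to 19 came from loess, normexp, both filters on dim spots, both treatments of outlier marks and both other gaps. The gap of 300 bp gave 32 regions in the window, of which 18 passed. Arrays, probe sequence and signal over background limit all values.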
